A study of Homo sapiens with 8 samples.

Results

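Serum response factor (SRF) and 46 genes of actin, myosin, tropomyosin, actin-binding proteins and SRF or YAP targets were followed in MDA-MB-231 (MDA231) cells, a mesenchymal-like human breast cancer line. These 47 genes were given as a list of symbols, and all 47 were found among the 58051 genes of the count files. The list was chosen from the readout itself, since SRF had been seen to be lower in SDHB knockout cells and to return on SDHA knockdown, so the SRF values below are a description and carry no test. Of the 47 genes, 46 passed the filter on low counts, among 7550 genes tested. TPM2 did not pass.

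Parental MDA231 cells (2 samples, unmodified) were compared with MDA231 cells whose SDHB gene had been disrupted (SDHB KO, 3 samples) and with SDHB KO cells that also carried a knockdown of SDHA (SDHB KO SDHA low, here SDHA low for short, 3 samples). SDHB and SDHA are the iron-sulfur and flavoprotein subunits of mitochondrial complex II. Exon 1 of SDHB was targeted with a TALEN construct under hygromycin selection, and SDHA with an shRNA plasmid under puromycin, so that both modified groups carry the SDHB disruption and only the third the SDHA shRNA. No group received any further treatment, and all cells were harvested while still subconfluent in full medium. The labels number the samples of each group as biological replicates without stating whether they came from separate cultures or clones, and p-values therefore measure the spread between these samples. Effects of the knockout and of the knockdown cannot be told apart from those of clone, nuclease, shRNA or drug selection.

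SRF binds a short A/T-rich element, the CArG box, in genes of the actin cytoskeleton. Its cofactors of the MRTF family are held in the cytoplasm by monomeric actin and reach the nucleus when actin polymerises, so that actin assembly and transcription of actin genes are linked, and ternary complex factors of the ELK family are its other partners. YAP and its paralogue WWTR1 (TAZ), acting through TEAD factors, respond to the same mechanical cues and share several targets with SRF, among them CCN1, CCN2 and ANKRD1.

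The upstream sequences of 4 members with a CArG box are shown because the element is the one SRF binds, and they include SRF itself and ACTG1, a member that passed the test. Each is the 250 bases before the transcription start of the RefSeq gene model on build GRCh38.p14, written 5′ to 3′ on the gene's strand, with the CArG box in capitals. The windows are chr6:43171019-43171268 (plus strand) for SRF, chr17:81512800-81513049 (minus) for ACTG1, chrX:154374635-154374884 (minus) for FLNA and chr19:1026358-1026607 (plus) for CNN2.
SRF: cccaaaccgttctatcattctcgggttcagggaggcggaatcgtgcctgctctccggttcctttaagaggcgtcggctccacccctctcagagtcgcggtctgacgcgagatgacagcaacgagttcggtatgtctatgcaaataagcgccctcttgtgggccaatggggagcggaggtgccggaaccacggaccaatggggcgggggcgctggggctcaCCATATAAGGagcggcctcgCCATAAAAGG
ACTG1: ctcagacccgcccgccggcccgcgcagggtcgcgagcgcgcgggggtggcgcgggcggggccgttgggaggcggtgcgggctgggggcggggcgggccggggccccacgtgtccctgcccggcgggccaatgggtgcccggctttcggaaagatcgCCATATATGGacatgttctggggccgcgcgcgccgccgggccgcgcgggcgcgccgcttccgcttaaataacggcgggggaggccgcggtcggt
FLNA: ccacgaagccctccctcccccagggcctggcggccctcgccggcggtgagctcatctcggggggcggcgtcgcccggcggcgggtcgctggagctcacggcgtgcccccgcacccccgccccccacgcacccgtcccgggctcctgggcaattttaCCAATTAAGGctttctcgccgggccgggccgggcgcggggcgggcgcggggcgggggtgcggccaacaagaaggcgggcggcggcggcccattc
CNN2: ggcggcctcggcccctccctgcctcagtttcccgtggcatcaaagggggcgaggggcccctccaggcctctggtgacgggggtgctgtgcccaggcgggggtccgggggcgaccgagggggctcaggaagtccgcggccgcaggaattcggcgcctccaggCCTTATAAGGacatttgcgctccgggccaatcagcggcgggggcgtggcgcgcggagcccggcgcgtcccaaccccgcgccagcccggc

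The next sequences are of 2 members known as YAP-TEAD targets, ANKRD1 (chr10:90921088-90921337, minus strand) and CCN2 (chr6:131951373-131951622, minus strand), with the TEAD motif GGAATG or its complement CATTCC in capitals. ANKRD1 holds 2 such matches and CCN2 3.
ANKRD1: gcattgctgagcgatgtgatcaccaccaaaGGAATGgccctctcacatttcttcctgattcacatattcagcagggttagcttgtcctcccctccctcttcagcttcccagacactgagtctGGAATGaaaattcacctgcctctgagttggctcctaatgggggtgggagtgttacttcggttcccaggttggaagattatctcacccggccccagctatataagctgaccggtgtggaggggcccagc
CCN2: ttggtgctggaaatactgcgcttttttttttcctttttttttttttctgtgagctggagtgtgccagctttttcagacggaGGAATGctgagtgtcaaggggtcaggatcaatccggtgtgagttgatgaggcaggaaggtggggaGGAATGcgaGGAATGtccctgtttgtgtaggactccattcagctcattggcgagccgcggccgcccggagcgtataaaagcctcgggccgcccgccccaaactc

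RefSeq windows of 300 bases, from 250 bases before to 50 after a start, were found for 41 of the 47 members, and since a gene may have several starts they make 71 windows. A CArG box, which is its own complement in form, lay in 9 of the 71 member windows (12.7%) and in 454 of 35116 windows of all genes (1.29%). These 9 windows belong to 7 genes, SRF, ACTG1, FLNA, ACTN1, CNN2, TPM4 and FHL2, and SRF holds 2 boxes, starting 30 and 10 bases before its start. Windows of nearby starts can overlap, and 2 of the 9, both of FHL2, hold the same box. The TEAD motif, read on both strands, lay in 12 of the 71 member windows (16.9%) and in 14% of all windows. The list holds genes picked as SRF or YAP targets, so these shares describe it and test nothing. A match is a run of letters and does not show that a factor binds there.

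The genes were counted from reads of the 3' end of polyadenylated transcripts (QuantSeq), with 773042 to 1427141 reads on genes per sample. Levels are given as CPM, reads scaled to a common library size, computed over the tested genes after TMM scaling. On that scale 3 reads correspond to 2.2 CPM (SDHA low replicate 2) to 4.1 CPM (SDHB KO replicate 1). SDHA stood at 74.0 to 91.6 CPM in parental, 134.5 to 151.1 in SDHB KO and 8.4 to 17.8 in SDHA low samples, lowest in the group labelled as its knockdown. SDHB had 0 to 4 counts in every sample, too few to check the knockout. The line's mesenchymal genes VIM, CD44, CAV1 and AXL were detected in every sample and none passed the test. Of 7 luminal genes, ESR1 and PGR had 0 counts in all 8 samples, FOXA1, EPCAM, CDH1 and ERBB3 had 0 to 3 counts, and GATA3 had 8 to 20 counts (8.9 to 22.2 CPM) and did not pass. SDHA low replicate 2, the deepest library, stood apart among the members. In it 6 of the 46 tested members lay more than 1 log2 unit from the mean of the other samples of its group. The same count was 0 to 2 in each of the other 7 libraries. Members whose call changed without it are given with both values.

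SRF (ENSG00000112658, chr6:43171269-43181506, plus strand) stood at 749.7 and 730.1 CPM in the parental samples. It stood at 388.6, 429.1 and 314.0 CPM in SDHB KO and at 790.5, 785.7 and 798.9 CPM in SDHA low samples. Every SDHB KO sample lay below the other 5, and the SDHA low samples lay just above the parental ones. The log2 difference was -0.97 between SDHB KO and parental cells, 1.07 between SDHA low and SDHB KO, and 0.10 between SDHA low and parental. Over the alternative settings the first 2 values ran from -1.07 to -0.84 and from 0.94 to 1.17. This is the pattern the list was chosen on. In bulk RNA, fewer cells expressing a gene and less of its RNA per cell cannot be told apart.

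Few of the other actin and actin-binding genes passed the test, and those that did went in both directions. Differences were taken from 1 fit of all 8 samples with edgeR's quasi-likelihood test, and a gene was called where its p-value, adjusted by Benjamini-Hochberg over the 7550 genes, was below 0.1. In SDHB KO against parental cells, 3 of the 45 tested members other than SRF rose, TAGLN2, CAPG and ANKRD1, where 3.14% of all tested genes rose. A further 2 fell, ACTG1 and CNN3, where 2.4% of all genes fell, and 40 did not pass. In SDHA low against SDHB KO cells, 0 members other than SRF rose by edgeR (0.318% of all genes rose) and 0 by DESeq2, with 3 at an unadjusted edgeR p below 0.05, and 3 fell, TAGLN, TAGLN2 and ANKRD1 (1.19% of all genes fell). In SDHA low against parental cells, MSN alone rose (0.225% of all genes) and 0 members fell (0.689% of all genes), with 4 lower at an unadjusted p below 0.05 and 1, ACTG1, called lower by DESeq2. The members called were 11.1%, 6.7% and 2.2% of the 45 in the 3 comparisons, where 418, 114 and 69 of the 7550 genes were called. In all, 38 of the 45 members passed in none of the 3 comparisons, a share that was not computed over all genes. Nor was the share of all genes at an unadjusted p below 0.05 computed in the fit of all 8 samples. The counts at that cut, here and below, therefore cannot be set against a background.

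The median log2 change of the 45 members was 0.14 in SDHB KO against parental cells, beside -0.001 over all 7550 genes, whose middle 50% ran from -0.4 to 0.39. It was -0.13 in SDHA low against SDHB KO, beside 0.013 over all genes, and -0.01 against parental, beside 0.017. The 3 SDHB KO samples lay below all 5 others for 2 members besides SRF, ACTG1 and CNN3, an order seen in 4.7% of all tested genes. They lay above all 5 others for MYL6, TAGLN, TAGLN2, FLNA and ANKRD1, an order seen in 5.06% of all genes. For any other order of the groups given below, the share over all genes was not computed.

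**Figure D1:**
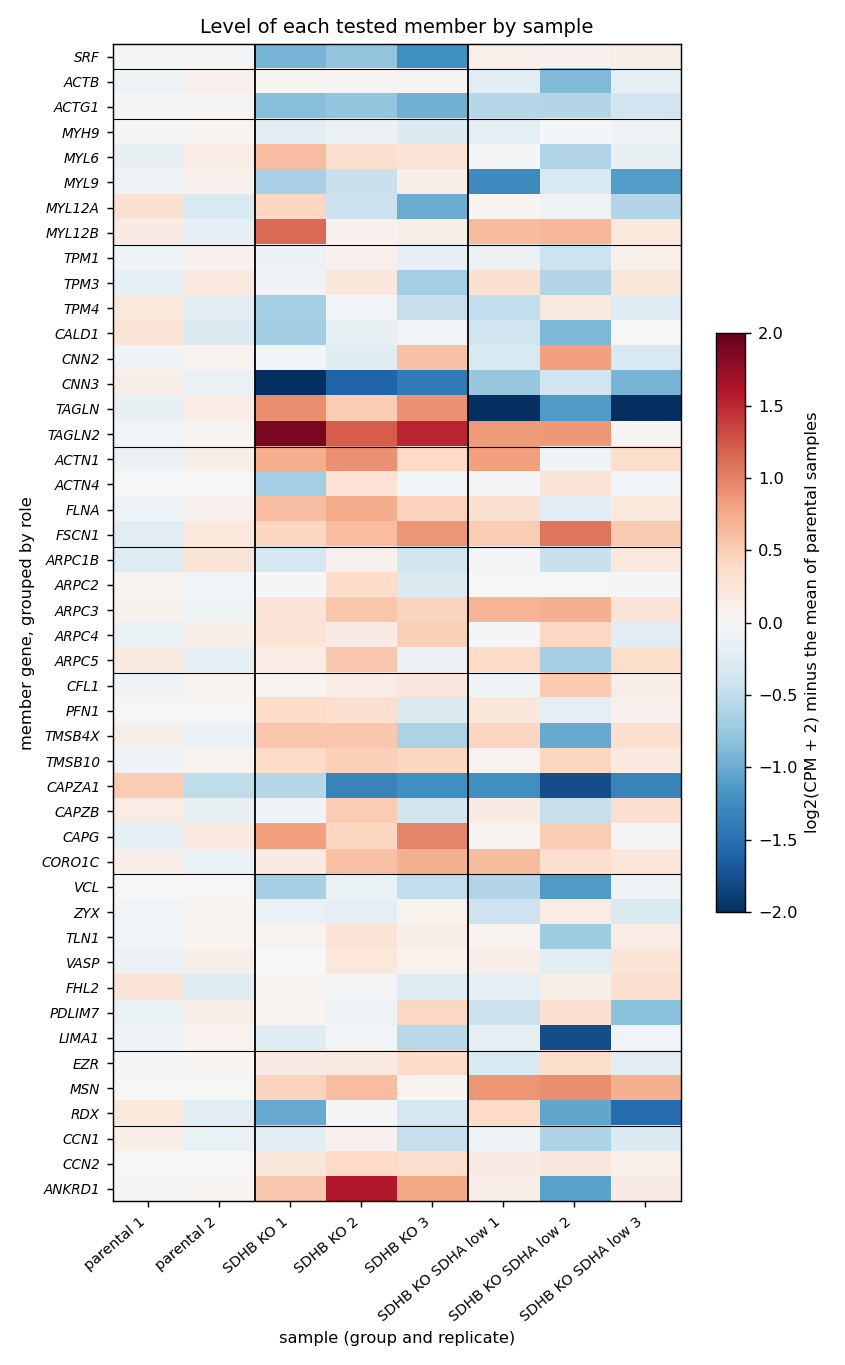
Each row is a tested member and each column a sample. Colour gives log2(CPM + 2) minus the mean of the parental samples, red higher and blue lower, limited to 2 in either direction, and black lines separate the roles and the 3 groups. SRF is blue in the 3 SDHB KO samples and near 0 in the other 5, ACTG1 is blue in both modified groups, and TAGLN2 is darkest red in SDHB KO.

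**Figure D2:**
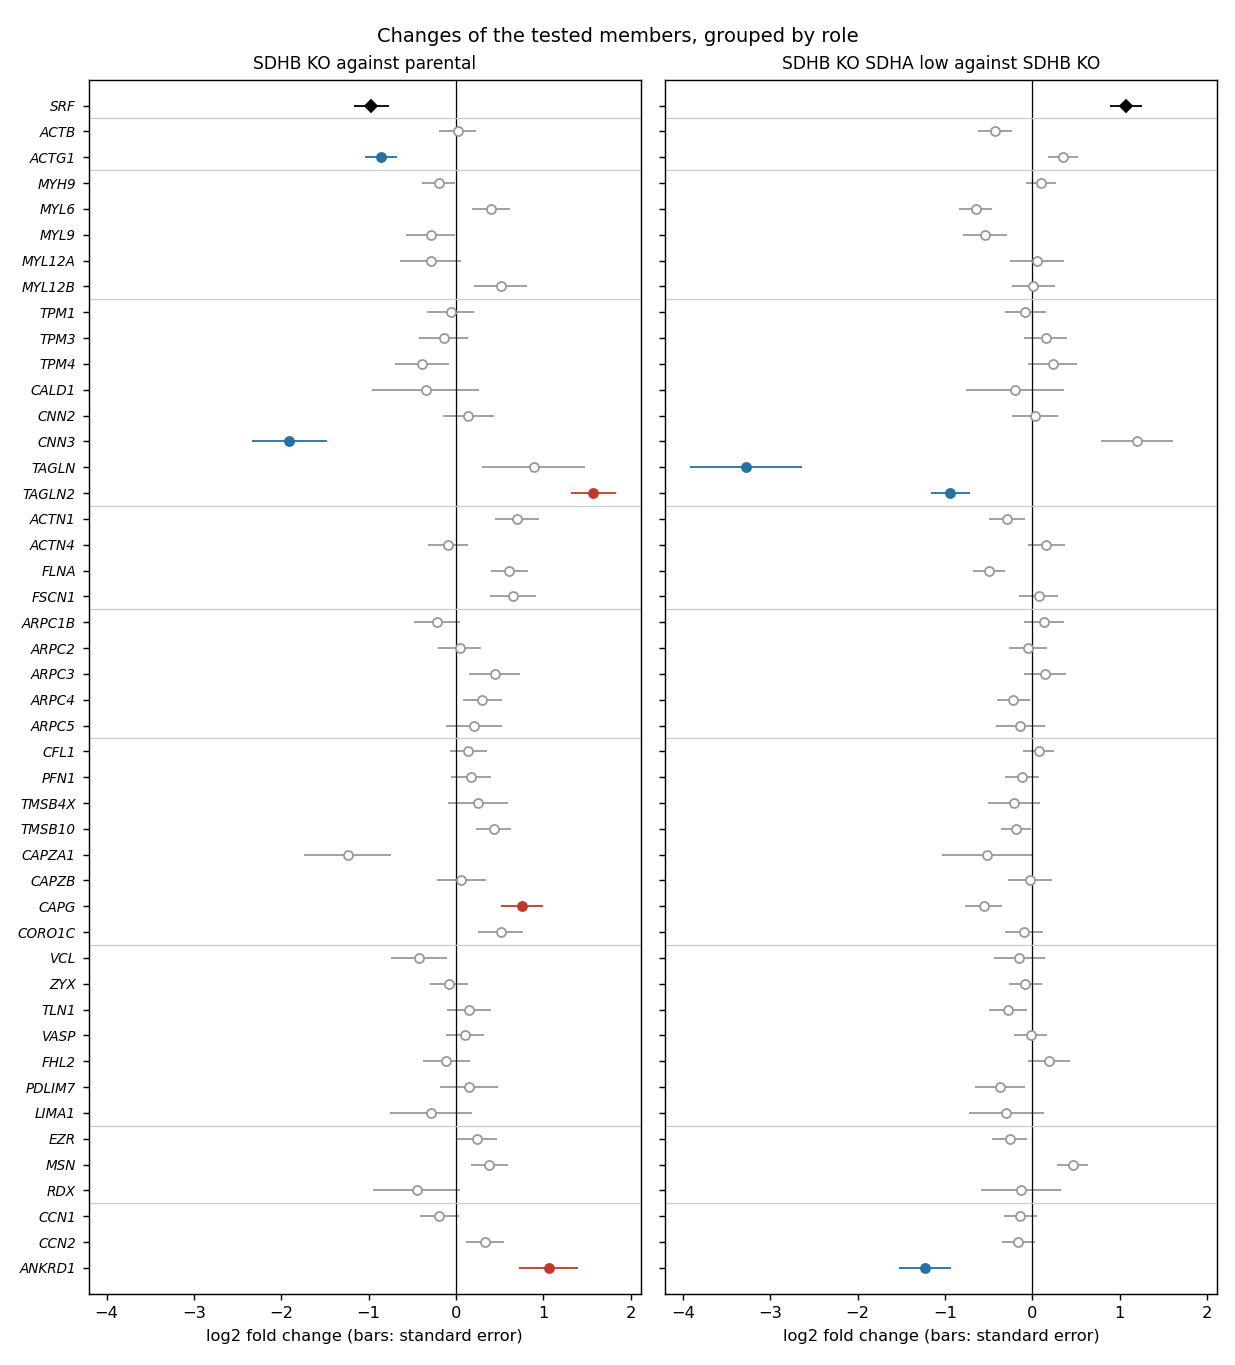
Points are log2 fold changes of the 46 tested members from the edgeR fit, with bars of 1 standard error, for SDHB KO against parental cells (left) and SDHA low against SDHB KO (right). Red points rose and blue points fell at the 0.1 threshold, open grey points did not pass, and SRF is a black diamond because the list was chosen on it. On the left TAGLN2 (1.57) and CNN3 (-1.91) lie farthest from 0, and on the right TAGLN (-3.28).

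The cytoplasmic actins form the filaments themselves, and of the 2 genes ACTG1 passed the test and ACTB did not. ACTG1 (gamma-actin, ENSG00000184009, chr17:81509413-81523847, minus strand) stood at 21913.1 and 22579.1 CPM in parental, 12370.7, 12926.8 and 11372.8 CPM in SDHB KO, and 14968.2, 14819.7 and 16998.3 CPM in SDHA low samples. The 3 groups did not overlap, and the SDHA low samples lay between the other groups. ACTG1 fell in SDHB KO against parental cells (log2 -0.86, SE 0.18, edgeR adjusted p = 0.015). SDHA knockdown in SDHB KO cells gave a log2 difference of 0.35 (SE 0.17, adjusted p = 0.40), and SDHA low against parental cells one of -0.51 (SE 0.18, adjusted p = 0.23), neither past the threshold. Leaving out parental replicate 1 or 2 gave a difference of -0.89 or -0.84, but with 1 parental sample left it did not pass (adjusted p = 0.29 and 0.17), in a range from 2.9e-05 to 0.29 over 17 alternative settings.

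ACTB (beta-actin) stood at 1612.7 and 1830.6 CPM in parental, 1762.4, 1745.4 and 1743.9 CPM in SDHB KO, and 1462.7, 934.2 and 1508.7 CPM in SDHA low samples. The SDHB KO samples lay between the parental ones (log2 0.02, SE 0.21, adjusted p = 0.97), and the lowest of all was SDHA low replicate 2. The SDHA low samples differed from SDHB KO by -0.43 (SE 0.19, adjusted p = 0.38).

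The ratio of ACTG1 to ACTB within a sample, which needs no scaling between libraries, was looked at after these values had been seen. There were 13.59 and 12.33 counts of ACTG1 per count of ACTB in parental, 7.02, 7.41 and 6.52 in SDHB KO, and 10.23, 15.86 and 11.27 in SDHA low samples. Every SDHB KO sample lay below the other 5. The mean ratio was 12.96 ± 0.89 (SD, n = 2), 6.98 ± 0.45 (SD, n = 3) and 12.45 ± 3.0 (SD, n = 3), and the exact two-sided permutation test on its log2 gave p = 0.2 for SDHB KO against parental and p = 0.1 for SDHA low against SDHB KO, each the smallest p that these sample numbers allow. SDHA low against parental cells gave a log2 difference of the ratio of -0.08 (exact permutation p = 0.8). That value averages SDHA low replicate 2, which lay above both parental samples, with replicates 1 and 3, which lay below both. ACTG1 alone took 2.26% and 2.2% of reads on genes in parental, 1.14%, 1.34% and 1.1% in SDHB KO and 1.52%, 1.39% and 1.75% in SDHA low samples. All other members together took 2.1% and 2.12%, 2.3%, 2.71% and 2.31%, and 2.29%, 2.08% and 2.22%.

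**Figure D3:**
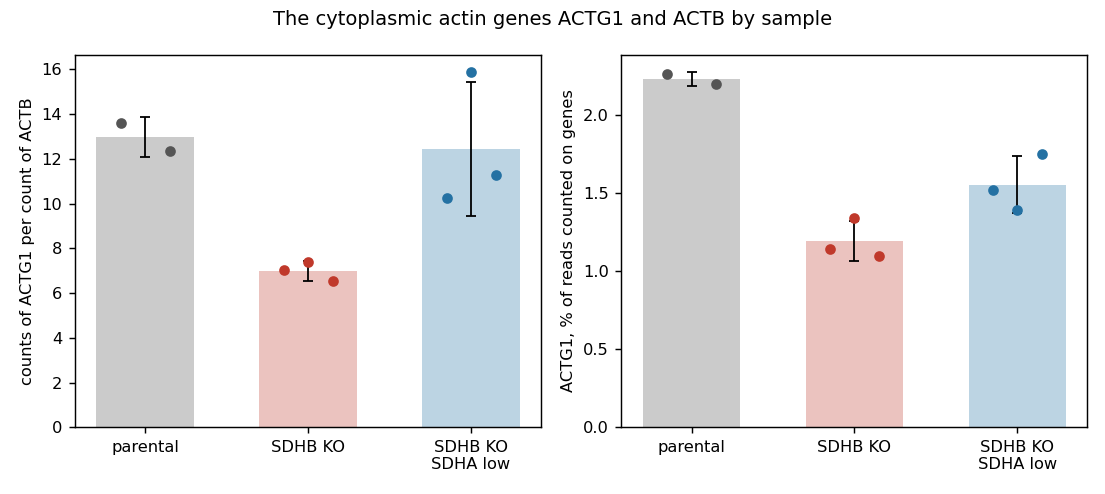
Left, counts of ACTG1 per count of ACTB, and right, ACTG1 as a percentage of the reads counted on genes, with 1 point per sample, bars for group means and error bars for the SD (n = 2, 3 and 3). The SDHB KO samples are lowest in both panels, and SDHA low replicate 2 has the highest ratio (15.86).

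Actin genes have many processed pseudogenes, and reads that map equally well to several places are not counted. The annotation holds 21 named pseudogenes of ACTG1 and 11 of ACTB, on which 3 and 0 reads were counted over the 8 samples. Reads mapping to several places made up 14.45% to 16.07% of reads in the SDHB KO samples, above the 9.72% to 12.28% in the other 5. The part of this difference in the lower ACTG1 counts was not tested.

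Of the myosin II genes, the motor that pulls on actin filaments, 0 of 5 passed the test in any comparison by edgeR. By DESeq2, MYL6 alone was called, lower on SDHA knockdown, and 3 differences of the 5 genes over the 3 comparisons had an unadjusted edgeR p below 0.05. MYH9, the non-muscle heavy chain, differed by -0.20 (SE 0.19, adjusted p = 0.63) between SDHB KO and parental cells. MYL6, the essential light chain, stood at 962.6 and 1177.5 CPM in parental, 1640.6, 1324.0 and 1266.9 in SDHB KO, and 1037.9, 699.9 and 956.1 in SDHA low samples. SDHB KO was highest with no overlap, but neither difference passed (log2 0.40, SE 0.22, adjusted p = 0.35, and on SDHA knockdown -0.65, SE 0.19, adjusted p = 0.14). The regulatory light chain MYL9, a classical SRF target, stood at 231.4 and 261.5 CPM in parental, 156.0, 180.1 and 266.5 in SDHB KO and 100.2, 197.7 and 112.5 in SDHA low samples. Its SDHA low samples all lay below the parental ones (log2 -0.83, SE 0.28, adjusted p = 0.20), and it passed only where SDHA low replicate 2 was left out, with -1.21 (SE 0.25, adjusted p = 0.0089, range 0.0089 to 0.87 over 16 settings) against parental and -0.94 (SE 0.23, adjusted p = 0.016, range 0.016 to 0.77) against SDHB KO cells. MYL12A and MYL12B, the other regulatory light chains, did not pass either.

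The genes of proteins that bind along the filament, tropomyosins, calponins, transgelins and caldesmon, held the widest changes of the list and in opposite directions. CNN3 (calponin 3, chr1:94896949-94927223, minus strand) stood at 41.6 and 34.5 CPM in parental, 5.5, 11.1 and 12.9 in SDHB KO, and 21.7, 28.4 and 18.9 in SDHA low samples. The groups did not overlap. CNN3 fell in SDHB KO against parental cells (log2 -1.91, SE 0.43, edgeR adjusted p = 0.023), from 26 and 36 counts to 4, 10 and 12. The difference between SDHA low and SDHB KO was 1.20 (SE 0.41, adjusted p = 0.21). Its fall did not pass without parental replicate 1 (adjusted p = 0.39), parental replicate 2 (0.11) or SDHB KO replicate 1 (0.11), in a range from 0.0052 to 0.39 over 16 settings, and DESeq2 gave it no adjusted p.

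TAGLN2 (transgelin 2, chr1:159918107-159925507, minus strand), a small calponin-related protein that binds actin filaments outside smooth muscle, moved the other way. It stood at 363.3 and 390.3 CPM in parental, 1392.9, 876.0 and 1082.4 in SDHB KO, and 678.2, 687.2 and 384.4 in SDHA low samples. All SDHB KO samples lay above all others, and SDHA low replicate 3 lay within the parental range. TAGLN2 rose in SDHB KO against parental cells (log2 1.57, SE 0.26, edgeR adjusted p = 0.0046) and fell on SDHA knockdown (log2 -0.94, SE 0.22, adjusted p = 0.045). SDHA low against parental cells gave 0.63 (SE 0.25, adjusted p = 0.30). The rise was lost only without parental replicate 1 (adjusted p = 0.28, range 2.1e-07 to 0.28 over 17 settings). The fall was lost without parental replicate 1 (adjusted p = 0.10) or 2 (0.11), SDHB KO replicate 1 (0.30) or 3 (0.15), or SDHA low replicate 3 (0.27), and in a fit of the 2 groups only (0.10), in a range from 0.0022 to 0.30.

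TAGLN (transgelin, SM22, chr11:117199370-117207464, plus strand), the smooth muscle paralogue and a textbook SRF target, had few reads. Its counts were 8 and 9 in parental, 16, 14 and 20 in SDHB KO, and 0, 5 and 1 in SDHA low samples. SDHB KO was highest and SDHA low lowest, with no overlap between the groups. TAGLN fell in SDHA low against SDHB KO cells (log2 -3.28, SE 0.64, edgeR adjusted p = 0.014), a value that depends on the prior count at such depth, and fitted values ran from -4.79 to -2.84 over the settings. Over the summed counts, 50 in SDHB KO and 6 in SDHA low samples, the ratio per read was 9.91 (95% exact interval 4.25 to 28.3, counting error only). The change passed in all 16 settings that gave an adjusted p. SDHB KO against parental cells gave 0.89 (SE 0.59, adjusted p = 0.46) and SDHA low against parental -2.40 (SE 0.75, adjusted p = 0.17). The latter passed without SDHA low replicate 2, which held 5 of the 6 counts of its group (log2 -3.88, SE 1.04, adjusted p = 0.056, range 0.056 to 0.84 over 14 settings), and in no other setting.

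The other members of this class did not pass. TPM1, TPM3 and TPM4, tropomyosins that coat the filament, differed by -0.06, -0.14 and -0.39, and CALD1 (caldesmon) by -0.35, in SDHB KO against parental cells. TPM2 had 6 and 3 counts in parental, 0, 11 and 5 in SDHB KO and 4, 3 and 4 in SDHA low samples and was not tested. CNN2 (calponin 2), whose promoter holds a CArG box, stood at 792.5 and 876.1 CPM in parental, 800.4, 704.8 and 1249.6 in SDHB KO, and 675.8, 1466.2 and 675.3 in SDHA low samples. In each modified group 1 sample lay far above its neighbours, and the groups overlapped (log2 0.14, SE 0.29, and 0.03, SE 0.26).

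**Figure D4:**
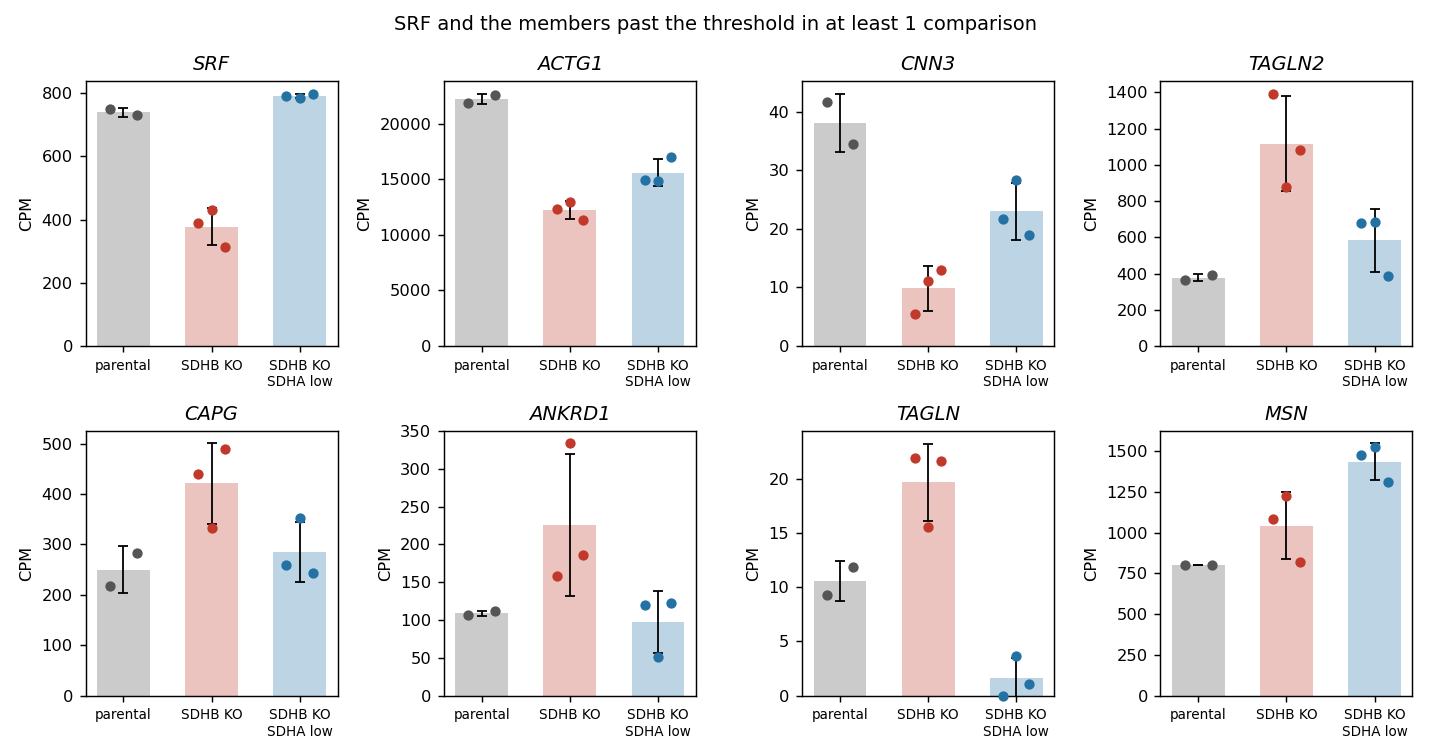
CPM of SRF and of the 7 members past the threshold in at least 1 comparison, with 1 point per sample, bars for group means and error bars for the SD (n = 2, 3 and 3). ACTG1 and CNN3 are lowest in SDHB KO as SRF is, TAGLN2, CAPG, ANKRD1 and TAGLN have their highest mean there, and MSN is highest in SDHA low.

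The crosslinkers, which tie filaments into bundles and networks, gave 3 positive differences of 4 in SDHB KO against parental cells, and 0 passed in the edgeR fit of all samples, with 3 at an unadjusted p below 0.05 and 2, FLNA and ACTN1, called by DESeq2. FLNA (filamin A) stood at 2793.9 and 3174.0 CPM in parental, 4592.0, 4971.5 and 4120.1 in SDHB KO, and 3696.5, 2543.6 and 3430.9 in SDHA low samples. SDHB KO was highest with no overlap, while the other 2 groups overlapped. Its differences were 0.61 (SE 0.21, adjusted p = 0.11) and, on SDHA knockdown, -0.50 (SE 0.18, adjusted p = 0.25). ACTN1 (alpha-actinin 1) stood at 504.4 and 588.1 CPM in parental, 905.8, 1026.1 and 721.9 in SDHB KO and 965.5, 518.6 and 693.1 in SDHA low samples. SDHB KO lay above parental without overlap (log2 0.70, SE 0.25, adjusted p = 0.13), and SDHA low spanned both. FSCN1 (fascin, of filopodia) stood at 107.6 and 144.7 CPM in parental, 169.7, 192.3 and 230.9 in SDHB KO, and 177.4, 265.6 and 179.4 in SDHA low samples. Both modified groups lay above the parental one (log2 0.65, SE 0.26, adjusted p = 0.18, and 0.73, SE 0.25, adjusted p = 0.22). FLNA, ACTN1 and FSCN1 did pass as higher in SDHB KO against parental cells where SDHA low replicate 2 was left out (log2 0.63, 0.71 and 0.67, edgeR adjusted p = 0.020, 0.019 and 0.054). They passed as well in a fit of those 2 groups only, and ACTN1 also with a correction for GC content and with no filter on low counts. In all they passed in 3, 5 and 2 of 16 settings. Leaving out that sample, or fitting only the 2 groups, raised the count of members past the threshold in that comparison from 5 to 8. ACTN4 (alpha-actinin 4) stood at 1485.5 and 1454.9 CPM in parental, 916.8, 1788.7 and 1422.3 in SDHB KO, and 1424.1, 1767.6 and 1408.5 in SDHA low samples, and the groups overlapped. FLNA and ACTG1 each hold a CArG box in the sequences above, and of these ACTG1 fell in SDHB KO cells and FLNA did not pass.

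The Arp2/3 complex nucleates branched filaments, and 5 of its subunits were members (ARPC1B, ARPC2, ARPC3, ARPC4 and ARPC5). Of these, 0 passed in any comparison by edgeR or DESeq2, and 0 had an unadjusted edgeR p below 0.05. The log2 differences of these 5 ran from -0.22 to 0.44 between SDHB KO and parental cells and from -0.22 to 0.14 on SDHA knockdown. ACTR2, ACTR3, ARPC1A and ARPC5L, also of the complex, were read among the other actin regulators and did not pass by edgeR. In SDHA low samples ACTR2 and ARPC5L lay below the parental ones without overlap (log2 -0.95, SE 0.45, edgeR adjusted p = 0.40, and -0.59, SE 0.27, adjusted p = 0.37), while ACTR3 and ARPC1A overlapped. The share of all genes in that order was not computed.

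Of the 8 genes of filament turnover and capping, CAPG (the macrophage capping protein of the gelsolin family, chr2:85394753-85418432, minus strand) alone passed. It stood at 217.5 and 282.8 CPM in parental, 440.6, 333.5 and 488.8 in SDHB KO, and 258.3, 352.9 and 244.0 in SDHA low samples. SDHB KO lay above parental without overlap, and SDHA low replicate 2 overlapped it. CAPG rose in SDHB KO against parental cells (log2 0.75, SE 0.24, edgeR adjusted p = 0.096), close to the threshold, and the difference on SDHA knockdown was -0.56 (SE 0.21, adjusted p = 0.27). Without SDHA low replicate 2 that difference passed as well (log2 -0.77, SE 0.20, adjusted p = 0.030, range 0.030 to 0.55 over 16 settings), and in no other setting. The rise did not pass without parental replicate 1 (log2 0.57, adjusted p = 0.64) or 2 (0.25), SDHB KO replicate 1 (0.23) or 3 (0.27), or SDHA low replicate 1 (0.11), in a range from 0.016 to 0.64.

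CAPZA1, a subunit of the other barbed-end capping protein, had 32 and 13 counts in parental, 12, 8 and 9 in SDHB KO, and 8 in each SDHA low sample. The modified groups lay below the parental one without overlap, and neither difference passed (log2 -1.24, SE 0.50, adjusted p = 0.18, and -1.76, SE 0.51, adjusted p = 0.14). Its partner subunit CAPZB differed by 0.06 and 0.03. CFL1 (cofilin, which severs filaments) stood at 1366.3 and 1512.0 CPM in parental, 1488.7, 1600.8 and 1676.9 in SDHB KO, and 1355.3, 2066.0 and 1577.8 in SDHA low samples, and the groups overlapped. PFN1 (profilin), TMSB4X and TMSB10 (thymosins, which bind monomeric actin) and CORO1C (coronin) differed by 0.17, 0.25, 0.43 and 0.51 in SDHB KO against parental cells, and 0 of these 4 passed.

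Among the 7 adhesion and LIM-domain genes, which link filaments to integrin adhesions or sense their tension, 0 passed in any comparison by edgeR or DESeq2, and 0 had an unadjusted edgeR p below 0.05. VCL (vinculin), ZYX (zyxin), TLN1 (talin), VASP, FHL2, PDLIM7 and LIMA1 differed by -0.42 to 0.15 between SDHB KO and parental cells and by -0.37 to 0.19 on SDHA knockdown. VCL and ZYX are among the classical SRF targets, with -0.42 (SE 0.32, adjusted p = 0.53) and -0.08 (SE 0.22, adjusted p = 0.90) in SDHB KO. FHL2, which has a CArG box in 3 of its windows, with overlapping windows sharing a box, gave -0.11 (SE 0.27, adjusted p = 0.89).

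The ERM proteins ezrin, moesin and radixin tie filaments to the plasma membrane. MSN (moesin, chrX:65588377-65741931, plus strand) stood at 800.6 and 799.1 CPM in parental, 1085.1, 1222.9 and 821.2 in SDHB KO, and 1473.5, 1523.6 and 1308.2 in SDHA low samples. The 3 groups were ordered without overlap, parental lowest. MSN rose in SDHA low against parental cells (log2 0.84, SE 0.21, edgeR adjusted p = 0.091), while its differences in SDHB KO against parental cells (0.38, SE 0.21, adjusted p = 0.35) and on SDHA knockdown (0.46, SE 0.18, adjusted p = 0.30) did not pass. The call is close to the threshold and was lost without parental replicate 1 (adjusted p = 0.84) or 2 (0.42), SDHB KO replicate 1 or 3 (0.11 for each) or SDHA low replicate 1 (0.26), in a range from 0.011 to 0.84. EZR and RDX did not pass, with 0.24 (adjusted p = 0.63) and -0.45 (adjusted p = 0.69) between SDHB KO and parental cells.

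The secreted matrix proteins CCN1 and CCN2 and the nuclear ankyrin-repeat protein ANKRD1 are targets of both SRF and YAP. ANKRD1 (chr10:90912096-90921087, minus strand) stood at 106.4 and 111.5 CPM in parental, 158.7, 333.5 and 185.6 in SDHB KO, and 119.5, 50.7 and 122.6 in SDHA low samples. SDHB KO was highest without overlap, led by its replicate 2, and the other groups overlapped. ANKRD1 rose in SDHB KO against parental cells (log2 1.06, SE 0.34, edgeR adjusted p = 0.098) and fell on SDHA knockdown (log2 -1.23, SE 0.30, adjusted p = 0.051). The rise passed in 7 of 17 alternative settings. It was lost without parental replicate 1 (adjusted p = 0.55) or 2 (0.35), SDHB KO replicate 1 (0.14), 2 (0.31, with log2 0.66) or 3 (0.14), or SDHA low replicate 1 (0.10), in a range from 0.0056 to 0.55. The fall passed in 12 of 17 and was lost without parental replicate 1 (adjusted p = 0.10) or SDHB KO replicate 2 (0.25), in a fit of the 2 groups only (0.10), with the replicate number as a block (0.14) and at a threshold of 0.05, in a range from 0.00031 to 0.25.

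CCN2 (connective tissue growth factor) stood at 146.9 and 147.4 CPM in parental, 172.4, 194.5 and 188.8 in SDHB KO, and 165.3, 173.1 and 158.2 in SDHA low samples. Both modified groups lay above the parental one, with 0.33 (SE 0.22, adjusted p = 0.46) and 0.17 (SE 0.22, adjusted p = 0.80). CCN1 (CYR61), also an immediate early gene of SRF, differed by -0.19 (SE 0.22, adjusted p = 0.71) and overlapped between all groups. The 3 genes thus gave different values, and the test was passed by ANKRD1 alone.

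Other genes of the same pathways, 83 in 6 lists, were read from the same fit, and 64 of them passed the filter. In SDHB KO against parental cells 0 rose by edgeR (6 at an unadjusted p below 0.05, 1 called by DESeq2) and 2 fell, AMOTL1 and CORO1B. DESeq2 called neither of these 2, and the 2 genes it called lower were focal adhesion genes. In SDHA low against SDHB KO 1 rose, JUNB, and 2 fell, TEAD4 and DSTN. In SDHA low against parental cells JUNB rose and 0 fell by edgeR (5 lower at an unadjusted p below 0.05, 0 called by DESeq2). The shares of all genes called are those given above for the members. These 6 calls were close to the threshold or rested on few samples. Those of AMOTL1 and CORO1B were lost without either parental sample or any SDHB KO sample (adjusted p up to 0.48 and 0.60), and JUNB against SDHB KO without any 1 of the 8 samples (up to 0.29). JUNB against parental cells was lost without either parental sample or SDHA low replicate 1 (up to 0.84), TEAD4 without SDHB KO replicate 1 or SDHA low replicate 1 (up to 0.17), and DSTN without either parental sample, SDHB KO replicate 2 or 3, or SDHA low replicate 1 (up to 0.26).

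Of SRF's 6 cofactor genes, 3 passed the filter and 0 passed the test by edgeR or DESeq2, with 3 differences over the 3 comparisons at an unadjusted edgeR p below 0.05. MRTFA stood at 26.6 and 15.9 CPM in parental, 26.0, 23.3 and 19.4 in SDHB KO, and 33.8, 44.0 and 27.9 in SDHA low samples. The SDHA low samples lay above all others, with 0.64 (SE 0.34, adjusted p = 0.46) against SDHB KO. ELK1 and ELK3, ternary complex factors, differed by 0.26 (adjusted p = 0.65) and -1.30 (adjusted p = 0.27) between SDHB KO and parental cells. MRTFB had 0 to 2 counts and ELK4 0 to 9 counts per sample, and MYOCD, the muscle cofactor, had 0 in all. JUNB, an immediate early gene, stood at 46.3 and 55.8 CPM in parental, 71.2, 57.8 and 56.1 in SDHB KO, and 108.6, 135.1 and 101.4 in SDHA low samples. It rose in the last group against SDHB KO (log2 0.91, SE 0.23, edgeR adjusted p = 0.069) and against parental cells (log2 1.18, SE 0.27, adjusted p = 0.070), and was the 1 gene called of the 6 tested among 10 other SRF targets.

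Of 9 focal adhesion genes tested (11 listed), 0 passed by edgeR, with 3, 3 and 1 at an unadjusted p below 0.05, and DESeq2 called 2 lower in SDHB KO against parental cells.

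In the YAP and TEAD list, 14 of 17 genes were tested. TEAD4, a DNA-binding partner of YAP, stood at 47.4 and 67.7 CPM in parental, 127.3, 76.7 and 97.1 in SDHB KO, and 36.2, 48.5 and 43.5 in SDHA low samples, and fell on SDHA knockdown (log2 -1.21, SE 0.26, edgeR adjusted p = 0.026). AMOTL1, an angiomotin that retains YAP, stood at 38.2 and 37.2 CPM in parental, 15.1, 14.5 and 18.3 in SDHB KO and 22.9, 26.9 and 23.4 in SDHA low samples, and fell in SDHB KO against parental cells (log2 -1.23, SE 0.38, adjusted p = 0.084). TEAD4 was thus highest and AMOTL1 lowest in the SDHB KO samples, without overlap. YAP1 itself stood at 6.9 and 4.0 CPM in parental, 24.6, 17.8 and 14.0 in SDHB KO, and 9.7, 5.2 and 5.6 in SDHA low samples. SDHB KO was highest with no overlap, and neither difference passed (log2 1.73, SE 0.60, adjusted p = 0.13, and -1.47, SE 0.50, adjusted p = 0.21). WWTR1 differed by -0.08 and 0.39. Over the 14 tested genes of the list, 6 differences between SDHB KO and parental cells were positive and 8 negative, with a median log2 of -0.05.

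Among 19 other actin regulators tested (23 listed), 1 fell in each of the first 2 comparisons. CORO1B (coronin 1B, which acts on Arp2/3 branches) stood at 94.9 and 74.3 CPM in parental, 47.9, 45.6 and 43.2 in SDHB KO and 49.5, 75.4 and 55.7 in SDHA low samples, and fell in SDHB KO against parental cells (log2 -0.90, SE 0.28, edgeR adjusted p = 0.092). DSTN (destrin, a relative of cofilin) stood at 259.1 and 236.3 CPM in parental, 186.1, 338.0 and 233.1 in SDHB KO and 129.1, 106.0 and 169.4 in SDHA low samples, and fell on SDHA knockdown (log2 -0.91, SE 0.23, adjusted p = 0.075). The SDHB KO samples were lowest for CORO1B, and the SDHA low samples for DSTN.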

How the data were processed

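RNA from 8 samples was sequenced as 3' mRNA libraries. The authors trimmed the reads, aligned them with STAR 2.5.2b to GRCh38 and deposited raw read counts per gene for each sample, together with counts scaled by DESeq2 (a normalized signal). The scaled values labelled SDHB KO replicate 1 matched the raw counts labelled replicate 3, and the reverse, and which labels are right is not known. Only the raw counts were used here, under their own labels. The replicate block and the numbers given to SDHB KO samples rest on those labels. Gene names and positions came from a later GENCODE annotation of the same assembly, with 56948 of 58051 identifiers matched. Genes with a DESeq2 BaseMean above 5 (7550) were fitted with edgeR 4.0.16 (TMM, quasi-likelihood, limma 3.58.1, R 4.3.3), with 1 coefficient per group and 5 residual degrees of freedom, as parental cells had only 2 samples. CPM were computed from the same libraries, and log2 fold changes use edgeR's moderated estimates. P-values were adjusted over all genes tested and called below 0.1, as in the study's methods. The scripts were tested on simulated data.

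The members and the gene lists were chosen with earlier results of these data known. Values in every sample are given for SRF, members past the threshold, the 5 largest changes in each comparison and the 5 highest mean CPM, and for listed pathway genes past the threshold. The SRF cofactors, YAP1 and WWTR1 are named whatever their result, and 1 pathway list is not reported here on its own. Other genes were named after their values were seen. Alternatives were the DESeq2 1.42.0 test and size factors, other filters, a correction for GC content of the last 300 bases, the replicate number as a block, fits of 2 groups only, leaving out each sample and a threshold of 0.05.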

Additional observations from a re-analysis of the deposited data

How the results depend on the processing

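The 9 member calls kept their direction in all 151 values from 17 alternative settings and stayed past the threshold in 107. As the groups compared did not overlap for any of these calls, leaving out a sample could hardly turn their direction. The threshold of 0.05 keeps the main fold changes. DESeq2 gave no adjusted p for CNN3 and TAGLN. In SDHB KO against parental cells, 5 members besides SRF were called, 3 with the replicate block, alone or with the GC offset, 8 in a fit of the 2 groups only, and 3 at an adjusted p below 0.05. Leaving out 1 sample gave 0 (parental replicate 1) to 8 (SDHA low replicate 2), and without parental replicate 1 edgeR called 0 of the 7479 genes tested (659 at an unadjusted p below 0.05; DESeq2 was not run without it). In SDHA low against SDHB KO, 3 were called, 1 in the fit of 2 groups and 1 to 5 with a sample left out. In SDHA low against parental cells, 1 was called, 2 with no filter (CAPZA1 lower in addition), 2 with DESeq2, and 0 with the replicate block, with the block and GC offset, in the fit of 2 groups and at 0.05, with 0 to 3 when a sample was left out. The median log2 change of the members in SDHB KO against parental cells, 0.139, was 0.042 with the GC offset, with or without the block, and 0.033 to 0.157 with a sample left out. The other medians, -0.13 and -0.012, ran from -0.197 to -0.043 and from -0.085 to -0.009 with a sample left out, and the last one from -0.085 to 0.043 over all settings, changing sign. Of the pathway genes, 2, 3 and 1 were called in the 3 comparisons, under alternatives chosen after seeing the data: 0, 1 and 0 with the block, alone or with the GC offset, 7, 1 and 0 in fits of 2 groups, 0, 1 and 0 at 0.05, 5, 3 and 2 with the GC offset, 0, 3 and 2 with no filter, and 0 to 8, 0 to 4 and 0 to 2 with a sample left out. The cause of these shifts was not tested. Leaving out a sample leaves fewer samples to estimate the spread, but the calls did not always become fewer. In SDHB KO against parental cells edgeR called 418 genes with all samples, 82 without SDHB KO replicate 1 and 846 without SDHA low replicate 2.

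The replicate numbers gave no sign of pairing the samples, but with so few samples per group this check could not show that there was none. Over 7 pairs of the same number the mean correlation of deviations was -0.07 (range -0.27 to 0.093), and not every sample correlated best with its own number. The block ended the calls of CAPG (adjusted p = 0.19), ANKRD1 (0.19 for its rise and 0.14 for its fall) and MSN (0.18). It lowered the calls over all genes from 418 to 199, from 114 to 59 and from 69 to 12 in the 3 comparisons, against 394, 128 and 79 with DESeq2. With 3 reads equal to 2.2 to 4.1 CPM, changes of TAGLN, CALD1, CAPZA1, RDX and LIMA1 were among the least resolved. TPM2 was not tested.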
